A study of Gallus gallus with 34 samples.

Results

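Regulators of G protein signalling (RGS proteins) are a family of genes whose messenger RNA was followed here in the chick eye through the first 3 days of lens wear. The set named 9 of them, RGS16, RGS2, RGS3, RGS4, RGS6, RGS7, RGS9, RGS11 and RGS20, and members were found by an exact match of the gene symbol in the count table. A row was found for 8 of the 9, among 13067 genes in all, each member with 1 row, and RGS11 was not analysed here. All 8 rows held enough reads to be tested in each of the 18 comparisons below. The set was put together with results of these same chicks known. RGS16 and RGS9 also stand in the study's own lists drawn from these chicks, RGS16 for the first day of negative lens wear and RGS9 for the last interval of growth without a lens. Those differences are therefore described below without a test. For the other members the values behind their choice are not known.

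When a receptor activates a heterotrimeric G protein, its alpha subunit carries GTP and signals until that GTP is hydrolysed. RGS proteins bind the active alpha subunit and speed up hydrolysis, so that the signal ends sooner. The R7 group, which is RGS6, RGS7, RGS9 and RGS11, works as a complex with the beta subunit GNB5 and a membrane anchor, RGS9BP or RGS7BP. In mammals RGS9 ends the light response of rods and cones by acting on transducin, and RGS7 and RGS11 act on GNAO1 in ON bipolar cells, downstream of the glutamate receptor GRM6. RGS2, RGS3, RGS4 and RGS16 belong to the small R4 group, which acts on alpha subunits of the Gi and Gq classes. RGS20 belongs to the RZ group, which was named for its action on the Gz alpha subunit.

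The tissue was the retina, retinal pigment epithelium and choroid, removed together from the right eye of 34 male Leghorn/New Hampshire chicks and sequenced as polyadenylated RNA, 1 library a chick. Chicks wore a negative lens, a positive lens (each of 10 diopters) or no lens from post-hatch day 5, and were collected 1, 2 or 3 days later, at post-hatch day 6, 7 or 8. A negative lens places the focal plane behind the retina and makes the eye grow faster, and a positive lens places it in front and slows growth. Apart from the lenses no treatment was given, and no gene was altered. Chicks were anaesthetized with ketamine and xylazine before their eyes were measured and collected. There were 4 chicks in each of the 9 groups except No Lens at 1 and 2 days, which had 3. The chicks sequenced had been picked from a larger cohort for clear and uniform changes in eye size and refraction, so the groups do not show the spread of unselected chicks. Each day comes from different chicks, and a change over days is a difference between groups. Total counts ran from 1592763 to 13765634 a chick, with a median of 5014243.5, and mitochondrial genes took 3.52 to 8.54% of them. Levels are CPM, that is counts scaled to a common library size, after TMM scaling, which corrects for library size but not for transcript length, so that levels of different genes cannot be set against each other. Markers of all 3 layers were present. Markers of photoreceptors summed to between 3639 and 6054 CPM over the chicks, those of the pigment epithelium to between 1149 and 1798, and those of endothelium to between 501 and 741.

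RGS16 (ENSGALG00000027550) was the member that set the negative lens group apart from both other groups at each age. No negative lens chick reached the level of any No Lens or positive lens chick of the same age. The gap was narrow at 2 days from no lens (37.5 against 39.3 CPM) and at 3 days from the positive lens (42.8 against 43.2 CPM). At 1 day its level in the 4 negative lens chicks was 27.4, 21.1, 30.4 and 27.8 CPM, a mean of 26.7 ± 3.97 (SD, n = 4). In the 3 No Lens chicks it was 45.7, 47.5 and 51.5 CPM, a mean of 48.2 ± 3.01 (SD, n = 3). The 4 positive lens chicks had 49.4, 59.2, 59.3 and 85.9 CPM, a mean of 63.4 ± 15.6 (SD, n = 4). All negative lens chicks thus lay below all others, while the lowest positive lens chick fell within the No Lens range and the other 3 lay above it.

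At 2 days, in other chicks, RGS16 stood at 32.4, 37.5, 23.6 and 33.6 CPM with the negative lens (mean 31.8 ± 5.87, SD, n = 4). Without a lens it was at 39.3, 44.2 and 81.6 CPM (mean 55.1 ± 23.1, SD, n = 3). With the positive lens it was at 52.7, 52.9, 55.0 and 60.3 CPM (mean 55.2 ± 3.54, SD, n = 4). Again the negative lens chicks were the lowest 4 of the 11, but 1 No Lens chick was far above the other 2 and raised the mean of its group. At 3 days the negative lens chicks had 33.9, 40.9, 42.8 and 23.1 CPM (mean 35.2 ± 8.91, SD, n = 4). The 4 No Lens chicks lay close together at 51.7, 50.2, 50.9 and 52.1 CPM (mean 51.2 ± 0.837, SD, n = 4). The positive lens chicks had 89.4, 43.2, 50.1 and 59.0 CPM (mean 60.4 ± 20.4, SD, n = 4), from below to far above the No Lens chicks. The positive lens chick of 43.2 CPM lay just above the negative lens chick of 42.8 CPM. It had 64 reads of RGS16, in the library with the lowest total count (1592763).

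**Figure D1:**
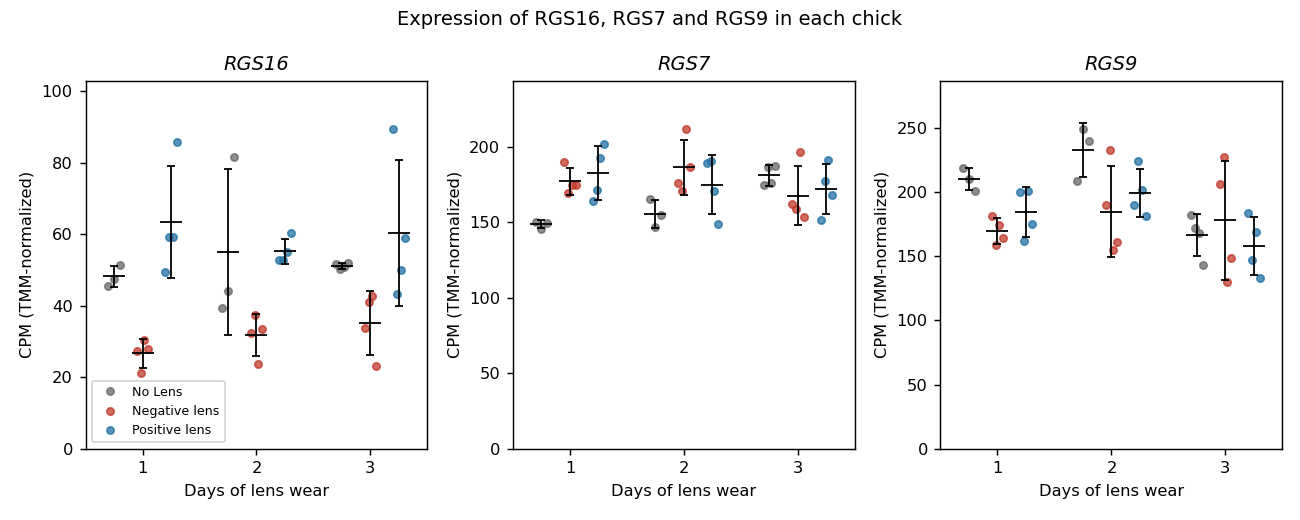
Levels of RGS16, RGS7 and RGS9 (CPM, TMM-normalized) in each chick against days of lens wear. Each dot is 1 chick, horizontal bars are group means and error bars are ± SD. For RGS16 the red dots of the negative lens lie below all dots of the other groups on each day, from 21.1 to 30.4 CPM at 1 day against 45.7 CPM or more in the other chicks. The gap was narrow at 2 days (37.5 against 39.3 CPM) and at 3 days (42.8 against 43.2 CPM).

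Between the 2 lenses at 1 day, RGS16 was lower with the negative lens, with a log2 ratio of -1.24 (standard error 0.16), and this was the only member called in any of the 18 comparisons (adjusted p = 0.0175 over all genes tested, quasi-likelihood test of edgeR). In that comparison 0.0262% of all 11448 genes were called, that is had an adjusted p below 0.05, and all of these were lower. In the other 17 comparisons, where no member was called, this share was 0% in 11, 0.00873% in each of 2 No Lens intervals (2 to 3 and 1 to 3 days), 0.0264% for the negative lens from 1 to 2 days, 0.0526% and 0.0348% between the lenses at 2 and 3 days and 0.878% for the positive lens at 3 days. The negative lens chicks here are the same as those in the comparison for which the study lists the gene, so the call is not independent of that choice. It was lost in a fit of only the 2 groups compared (adjusted p = 0.126). It was also lost when any of 4 of the 8 chicks was left out (negative lens replicates 2, 3 and 4 and positive lens replicate 2), with adjusted p-values of 0.0535 to 0.106 and log2 fold changes of -1.30 to -1.15. Against the No Lens chicks of 1 day the log2 fold change of the negative lens was -0.85 (standard error 0.17), given as a description.

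The chicks of 2 and 3 days are not those of the contrast for which the study lists RGS16. The set was still put together with results of all these chicks known, so the values below are no independent test. With the negative lens against no lens the log2 fold change was -0.78 at 2 days (standard error 0.22, unadjusted p = 0.00474, adjusted p = 0.734, edgeR) and -0.58 at 3 days (standard error 0.20, unadjusted p = 0.0113, adjusted p = 0.413). Without the No Lens chick of 81.6 CPM (replicate 3) the value at 2 days was -0.40. With a chick left out in turn the value at 3 days ranged from -0.68 to -0.41, with unadjusted p-values up to 0.0424 (edgeR). Without the negative lens chick of 23.1 CPM (replicate 4 of 3 days) 355 of all genes were called against no lens at 3 days, against 0 with it, and RGS16 was not among them. Against the positive lens the log2 fold change of the negative lens was -0.80 at 2 days (standard error 0.21, unadjusted p = 0.00267, adjusted p = 0.885) and -0.83 at 3 days (standard error 0.20, unadjusted p = 0.000927, adjusted p = 0.184). None of these passed the adjusted threshold over all genes tested. The last of them passed it with the likelihood ratio test of edgeR (adjusted p = 0.0298) and with DESeq2 with (0.0445) and without (0.0348) its beta prior, which shrinks fold changes. In that comparison these settings called 64, 38 and 60 of all genes, against 4 with the quasi-likelihood test. At 1, 2 and 3 days all negative lens chicks lay below all No Lens chicks in 2.82%, 4.52% and 1.98% of genes. Against the positive lens these shares were 0.865%, 1.31% and 2.03%. The comparisons with no lens and with the positive lens share their negative lens chicks and are not independent of each other.

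With the positive lens RGS16 overlapped with the No Lens chicks at each age. At 1 day the log2 fold change was 0.39 (standard error 0.17, unadjusted p = 0.0376, adjusted p = 1.00, edgeR), and without the chick of 85.9 CPM (replicate 4) the value was 0.22. The log2 fold changes at 2 and 3 days were 0.02 and 0.25, with 95% intervals of -0.47 to 0.50 and -0.17 to 0.67. Within a lens group no change of RGS16 between days had an unadjusted p below 0.05. The log2 fold change of the negative lens against no lens at 2 days minus that at 3 days was -0.21 (95% interval -0.86 to 0.43, unadjusted p = 0.503, adjusted p = 1.00, edgeR, all 34 chicks), an interval wide enough to hold a difference of the size of the lens effect itself.

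The tissue is a mixture, and for RGS16 and all members fewer cells of a type and less RNA per cell cannot be told apart. At 1 day 5 of 7 photoreceptor markers (GNAT1, GNAT2, PDE6C, PDE6B, PDE6H, ARR3 and GUCA1A) were lower with the negative lens than without a lens at an unadjusted p below 0.05, and their summed level was 4175 to 4819 CPM against 5478 to 6054 CPM. At 2 days 3 of the 7 were lower. At 3 days, when RGS16 was still lower with the negative lens, 2 of the 7 were higher. Between the lenses at 1 day, 3 of the 5 fibroblast markers measured were lower and 1 higher with the negative lens (summed level 450.5 to 726 CPM against 540.4 to 784.4 CPM). The mean fibroblast sums were alike, at 613 CPM with the negative lens and 609 CPM with the positive lens. In the same comparison 3 of the 5 smooth muscle and pericyte markers were higher (664.3 to 1153 CPM against 389.6 to 698.9 CPM). No marker measured was at 0 on average. A summed level follows mostly the genes with the highest counts. In the photoreceptor sum that was PDE6H, with a mean of 2671 CPM over all chicks. In the smooth muscle and pericyte sum they were MYH11 (356 CPM) and ACTG2 (330 CPM). The part of the marker lists in the result was not tested.

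Over the 34 chicks the 3 genes whose log2 CPM followed RGS16 most closely, among 10146 genes with a mean of at least 5 CPM, were PTX3, a secreted pentraxin (Pearson r = 0.80, Spearman rho = 0.87), ADAMTSL3, a secreted matrix glycoprotein (r = 0.80, rho = 0.77), and GCG, the glucagon precursor (r = 0.79, rho = 0.81). These correlations are descriptions. The chicks share library preparation, lens groups and tissue makeup.

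Among the R7 genes, RGS9 (ENSGALG00000004060) is the regulator of the photoreceptor light response. Its mean was lower with either lens than without a lens at 1 and 2 days. At 3 days it was higher with the negative lens and lower with the positive lens, with overlap. At 1 day the negative lens chicks had 182, 159, 174 and 164 CPM (mean 170 ± 10.2, SD, n = 4). The No Lens chicks had 219, 211 and 201 CPM (mean 210 ± 8.88, SD, n = 3). With the positive lens the values were 200, 162, 201 and 175 CPM (mean 184 ± 19.3, SD, n = 4). Every chick with either lens lay below the lowest No Lens chick, although the highest positive lens chicks came within 1 CPM of it. Negative lens chicks lay below all No Lens chicks in 2.82% of genes and positive lens chicks in 2.68%. Against no lens RGS9 had a log2 fold change of -0.31 with the negative lens (standard error 0.10, unadjusted p = 0.00718, adjusted p = 1.00, edgeR) and -0.18 with the positive lens (standard error 0.10, unadjusted p = 0.0811, adjusted p = 1.00). Without positive lens replicate 2, the chick of 162 CPM, the second value was -0.12.

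At 2 days RGS9 was at 190, 233, 155 and 161 CPM with the negative lens (mean 185 ± 35.5, SD, n = 4) and at 209, 249 and 240 CPM without a lens (mean 233 ± 21.1, SD, n = 3). Positive lens chicks had 190, 224, 202 and 181 CPM (mean 199 ± 18.6, SD, n = 4). These groups overlapped, and the log2 fold change of the negative lens was -0.34 (standard error 0.14, unadjusted p = 0.0293, adjusted p = 0.974, edgeR). With a chick left out in turn that value ranged from -0.47 to -0.25, with unadjusted p-values up to 0.0965 (edgeR). The log2 fold change of the positive lens was -0.22 (95% interval -0.52 to 0.07). The No Lens chicks of 2 and 3 days are those of the interval for which the study lists the gene. At 3 days the levels were 206, 227, 130 and 149 CPM with the negative lens (mean 178 ± 46.3, SD, n = 4). They were 182, 172, 168 and 143 CPM without a lens (mean 166 ± 16.5, SD, n = 4) and 184, 147, 169 and 133 CPM with the positive lens (mean 158 ± 22.5, SD, n = 4). The 4 negative lens chicks of 3 days fell into a high pair and a low pair, on both sides of the No Lens chicks, and the log2 fold change was 0.10 (95% interval -0.22 to 0.41). Between the lenses RGS9 overlapped at each age, with log2 fold changes of the negative against the positive lens of -0.13, -0.11 and 0.18. Their 95% intervals were -0.32 to 0.07, -0.39 to 0.16 and -0.14 to 0.51.

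Without a lens RGS9 was highest at 2 days and lowest at 3 days, and no chick of 3 days reached any chick of 1 or 2 days. From 2 to 3 days the log2 fold change was -0.47 (standard error 0.09), given as a description beside 2.46% of genes that separated these groups downward. From 1 to 3 days it was -0.33 (standard error 0.09, unadjusted p = 0.00286, adjusted p = 0.264, edgeR), in a comparison that shares the chicks of 3 days with the one just described, and 4.64% of genes separated these groups in the same direction. With the positive lens RGS9 was lower at 3 than at 2 days by -0.34 (standard error 0.12, unadjusted p = 0.0115, adjusted p = 1.00), with overlapping groups. With the negative lens the change over the same days was -0.08 (95% interval -0.44 to 0.29). The negative lens difference of RGS9 was more negative at 1 day than at 3 days by -0.41 (unadjusted p = 0.0492, adjusted p = 0.998, edgeR, all 34 chicks) and at 2 days than at 3 days by -0.43 (unadjusted p = 0.0396, adjusted p = 1.00). Both contain No Lens chicks from the interval for which the study lists the gene. Without the negative lens chick of 227 CPM (replicate 2 of 3 days) these were -0.25 and -0.27.

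RGS9BP, the anchor that holds RGS9 to the photoreceptor membrane, had differences of the same sign in these comparisons. Against no lens it was lower with the negative lens at 1 day by -0.44 on the log2 scale (standard error 0.13, unadjusted p = 0.00437, adjusted p = 0.864, edgeR), from a mean of 689 to 508 CPM, with no overlap. At 2 days it was lower by -0.30 (standard error 0.12, unadjusted p = 0.0248, adjusted p = 0.956), from 741 to 604 CPM, also with no overlap. Groups separated downward in 2.82% of all genes at 1 day and in 4.52% at 2 days. At 3 days the mean of RGS9BP was 590 CPM with the negative lens and 589 CPM without a lens. Between 2 and 3 days without a lens the log2 fold change of RGS9BP was -0.32 (standard error 0.12, unadjusted p = 0.0214, adjusted p = 0.859). ARR3, the cone arrestin, had log2 fold changes of -0.57, -0.64 and 0.33 for the negative lens at 1, 2 and 3 days and of -0.84 without a lens from 2 to 3 days. Of the 7 photoreceptor markers, 5 were lower at an unadjusted p below 0.05 without a lens at 3 than at 2 days, with summed levels of 4023 to 5172 CPM against 5572 to 6040 CPM. Not all markers of the list had the sign of RGS9. The mean of GNAT1 was 150 CPM with the negative lens against 130 CPM without a lens at 1 day and 131 against 96.0 CPM at 2 days, and that of GNAT2 was 549 against 452 CPM at 2 days. The part of the photoreceptor markers in the differences of RGS9 was not tested.

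**Figure D2:**
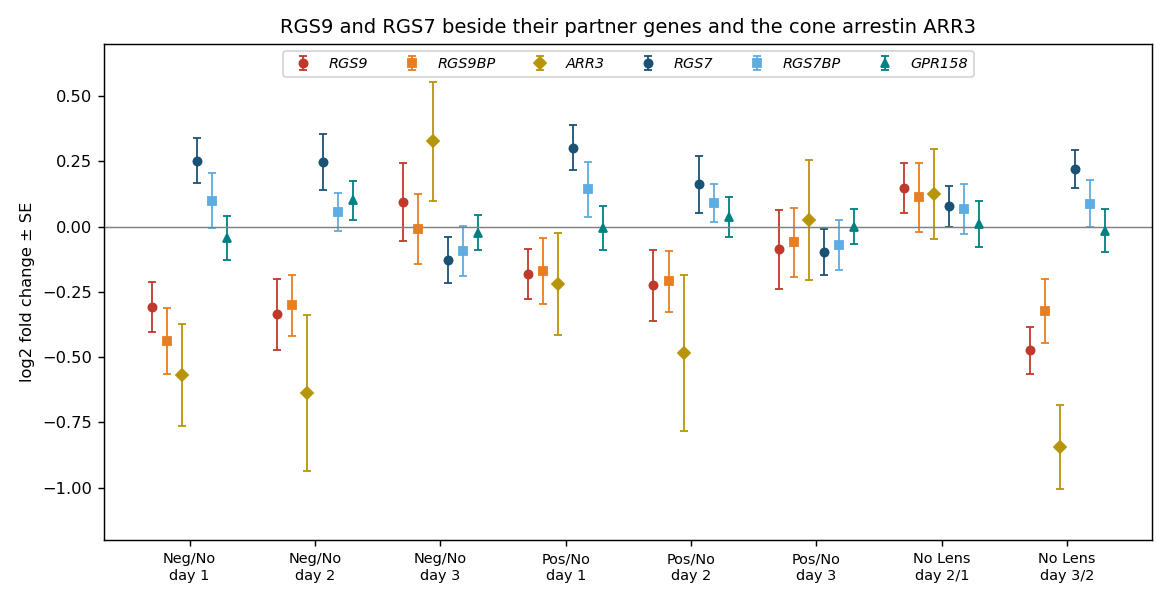
Log2 fold changes (± standard error) of RGS9 with its anchor RGS9BP and the cone arrestin ARR3, and of RGS7 with its partners RGS7BP and GPR158, for each lens against no lens at each day and for No Lens chicks over days. RGS9, RGS9BP and ARR3 lie below 0 for the negative lens at 1 and 2 days and for No Lens chicks from 2 to 3 days, while RGS7 lies above 0 there (0.25, 0.25 and 0.22). The other photoreceptor markers, among them GNAT1 and GNAT2, which did not always have the sign of RGS9, are not drawn.

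The genes most like RGS9 over the 34 chicks were ENSGALG00000015374 (Pearson r = 0.91, Spearman rho = 0.92), CNGA3, a subunit of the cone cyclic nucleotide-gated channel (r = 0.87, rho = 0.85), and ENSGALG00000025733 (r = 0.86, rho = 0.87). The table gives no symbol for the first and the third.

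RGS7 (ENSGALG00000010772), the R7 member that acts on GNAO1 in bipolar cells of mammals, lay above the No Lens chicks at 1 day with the negative lens, where the mean of RGS9 was below theirs. At 1 day the No Lens chicks had 150, 146 and 150 CPM (mean 149 ± 2.56, SD, n = 3). The negative lens chicks had 190, 170, 174 and 175 CPM (mean 177 ± 8.91, SD, n = 4). The positive lens chicks had 164, 172, 193 and 202 CPM (mean 183 ± 17.7, SD, n = 4). All 8 chicks with a lens, of either sign, were above all 3 without one. Set against them, RGS7 had a log2 fold change of 0.25 with the negative lens (standard error 0.09, unadjusted p = 0.0130, adjusted p = 1.00, edgeR) and 0.30 with the positive lens (standard error 0.09, unadjusted p = 0.00440, adjusted p = 1.00). Both comparisons use the same 3 No Lens chicks, and 2.81% and 2.74% of genes separated the groups upward in them. Between the lenses the log2 fold change was -0.05 (95% interval -0.22 to 0.12).

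At 2 days RGS7 was at 165, 147 and 155 CPM without a lens (mean 156 ± 9.40, SD, n = 3) and at 176, 171, 212 and 187 CPM with the negative lens (mean 186 ± 18.2, SD, n = 4). With the positive lens it was at 190, 191, 171 and 149 CPM (mean 175 ± 19.7, SD, n = 4). The negative lens chicks again lay above the No Lens chicks, by a log2 fold change of 0.25 (standard error 0.11, unadjusted p = 0.0427, adjusted p = 0.987, edgeR) and with 2.65% of genes separated upward, while the positive lens chicks overlapped them (0.16, 95% interval -0.08 to 0.40). With a chick left out in turn the negative lens value ranged from 0.19 to 0.31, with unadjusted p-values up to 0.135 (edgeR). At 3 days the No Lens chicks had 174, 187, 176 and 187 CPM (mean 181 ± 6.88, SD, n = 4). The negative lens chicks had 162, 159, 196 and 154 CPM (mean 168 ± 19.5, SD, n = 4). The positive lens chicks had 151, 177, 191 and 168 CPM (mean 172 ± 16.6, SD, n = 4). At that age the groups overlapped, with log2 fold changes of -0.13 (negative lens) and -0.10 (positive lens).

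Over days RGS7 set the No Lens chicks of 3 days apart from those of 1 and 2 days, which overlapped each other. All 4 chicks of 3 days were above all chicks of 1 and 2 days, with a log2 fold change of 0.30 from 1 to 3 days (standard error 0.07, unadjusted p = 0.00120, adjusted p = 0.205, edgeR) and 0.22 from 2 to 3 days (standard error 0.07, unadjusted p = 0.00944, adjusted p = 0.703). Groups separated upward in 5.95% of genes from 1 to 3 days and in 2.91% from 2 to 3 days. With DESeq2 the change from 1 to 3 days had adjusted p-values of 0.0328 with the beta prior and 0.0336 without it. DESeq2 called 79 and 76 of all genes there, against 1 with the quasi-likelihood test of edgeR. In the lens groups no change of RGS7 over days had an unadjusted p below 0.05. The lens differences of RGS7 were then compared between days. The difference from no lens was greater at 1 than at 3 days by 0.37 on the log2 scale with the negative lens (standard error 0.13, unadjusted p = 0.00707, adjusted p = 0.998, edgeR, all 34 chicks). It was also greater by 0.37 with the positive lens (standard error 0.13, unadjusted p = 0.00701, adjusted p = 0.583), and by 0.37 at 2 than at 3 days with the negative lens (standard error 0.13, unadjusted p = 0.00680, adjusted p = 1.00). These contrasts share their No Lens chicks, and none passed the adjusted threshold.

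RGS7BP, which anchors the R7 complexes in neurons, and GPR158, a receptor that binds RGS7, showed no such differences beyond their error. No comparison gave RGS7BP an unadjusted p below 0.05, and its group means ran from 208 to 231 CPM. GPR158 met that threshold only for the negative lens, at 2 against 1 day (log2 fold change 0.17, standard error 0.06, unadjusted p = 0.0107, adjusted p = 0.673, edgeR) and at 3 against 2 days (-0.17, standard error 0.06, unadjusted p = 0.0103, adjusted p = 0.911). GNAO1, the alpha subunit on which RGS7 acts, was higher with the negative lens than without a lens at 3 days by 0.37 (standard error 0.12, unadjusted p = 0.00868, adjusted p = 0.413). TRPM1, the channel at the end of the ON bipolar cascade, was lower with the positive lens at 3 days by -0.23 (standard error 0.10, unadjusted p = 0.0477, adjusted p = 0.277) and higher at 2 than at 1 day without a lens by 0.33 (standard error 0.14, unadjusted p = 0.0380, adjusted p = 0.949). GNB5, GPR179 and GRM6 were not analysed here. Most like RGS7 over the 34 chicks were DENND4A (Pearson r = 0.83, Spearman rho = 0.82), PGAP1 (r = 0.81, rho = 0.79) and CCDC88A (r = 0.78, rho = 0.75).

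RGS6 (ENSGALG00000009368), which in mice acts on Gi and Go subunits in the heart and in neurons, varied little. Its group means ran from 58.9 to 67.1 CPM, 1.14 times apart, and single chicks from 50.7 to 83.4 CPM, the highest a negative lens chick of 3 days. In none of the 18 comparisons did it reach an unadjusted p of 0.05 or separate the groups, and its log2 fold changes lay between -0.17 and 0.15. The genes most like it were ZNF330 (r = 0.60, rho = 0.58), CAPN2 (r = 0.59, rho = 0.63) and ABTB1 (r = 0.52, rho = 0.47).

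Among the remaining R4 genes RGS3 (ENSGALG00000008881), which acts on Gi and Gq subunits, met an unadjusted p below 0.05 but not the adjusted threshold, over days in the No Lens chicks and for the positive lens at 3 days. Without a lens it stood at 16.3, 24.2 and 26.1 CPM at 1 day (mean 22.2 ± 5.16, SD, n = 3), at 18.1, 17.3 and 21.6 CPM at 2 days (mean 19.0 ± 2.27, SD, n = 3) and at 12.9, 18.7, 15.8 and 15.9 CPM at 3 days (mean 15.8 ± 2.39, SD, n = 4). With the positive lens at 3 days it stood at 24.3, 21.6, 16.9 and 23.7 CPM (mean 21.6 ± 3.35, SD, n = 4), where 3 of the 4 chicks were above all No Lens chicks and the last was among them. The log2 fold change of the positive lens at 3 days was 0.44 (standard error 0.18, unadjusted p = 0.0272, adjusted p = 0.207, edgeR). In that comparison 17.6% of all genes had an unadjusted p below 0.05, and 3 of 5 fibroblast markers and 3 of 5 smooth muscle and pericyte markers were higher with the lens. The summed fibroblast level was 688.5 to 1302 CPM against 534.9 to 715 CPM. The summed smooth muscle and pericyte level went the other way on average, with overlap, at 481.6 to 869.8 CPM (mean 710) against 616.5 to 1019 CPM (mean 811). The part of these markers in the result was not tested. From 1 to 3 days without a lens the log2 fold change of RGS3 was -0.49 (standard error 0.17, unadjusted p = 0.0147, adjusted p = 0.319), with overlapping groups.

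With either lens the mean of RGS3 lay below the No Lens mean at 1 day (17.4 and 17.9 CPM with the negative and the positive lens) and above it at 3 days (20.4 and 21.6 CPM), with overlap at both ages. Its difference from no lens was lower at 1 than at 3 days by -0.72 with the negative lens (standard error 0.31, unadjusted p = 0.0285, adjusted p = 0.998, edgeR, all 34 chicks) and by -0.77 with the positive lens (standard error 0.31, unadjusted p = 0.0201, adjusted p = 0.583). These contrasts have the same No Lens chicks. PPAP2C (r = 0.88, rho = 0.85), PRODH (r = 0.88, rho = 0.85) and COL18A1, a basement membrane collagen (r = 0.88, rho = 0.87), were most like RGS3 over the 34 chicks.

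RGS2 (ENSGALG00000002540), which acts foremost on Gq, had the lowest counts of the set, from 18 to 160 reads a chick. Its values with the positive lens went from 11.0, 10.9, 7.60 and 10.1 CPM at 1 day (mean 9.93 ± 1.60, SD, n = 4) and 5.71, 12.2, 10.2 and 9.55 CPM at 2 days (mean 9.42 ± 2.72, SD, n = 4) to 13.0, 12.1, 12.2 and 19.6 CPM at 3 days (mean 14.2 ± 3.58, SD, n = 4). The chicks of 3 days were above all chicks of 1 day and overlapped those of 2 days, and 1 of them stood well above the other 3. The log2 fold change was 0.52 from 1 to 3 days (standard error 0.24, unadjusted p = 0.0495, adjusted p = 0.836, edgeR) and 0.61 from 2 to 3 days (standard error 0.24, unadjusted p = 0.0262, adjusted p = 1.00). Without the chick of 19.6 CPM (replicate 4) these were 0.31 and 0.39. Groups separated upward from 1 to 3 days in 2.57% of genes. No lens difference of RGS2 at any day had an unadjusted p below 0.05. PFKM (r = 0.72, rho = 0.58), BRT-1 (r = 0.71, rho = 0.51) and SMAD3 (r = 0.70, rho = 0.58) were most like it.

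RGS4 (ENSGALG00000002564), a regulator of Gi and Gq signals in neurons, and RGS20 (ENSGALG00000025941), the RZ member, met neither criterion in any of the 18 comparisons. The group means of RGS4 ran from 48.3 CPM without a lens at 2 days to 59.6 CPM with the negative lens at 3 days, 1.24 times apart, with log2 fold changes of -0.19 to 0.18. Those of RGS20 ran from 32.2 to 35.0 CPM, 1.09 times apart, with log2 fold changes of -0.11 to 0.07. By this ratio RGS20 was the steadiest member across the 9 groups. Its spread between chicks of a group, as an SD of log2 CPM, was 0.14, against 0.32 for RGS16 and RGS3. By that spread RGS7 was lower, at 0.12. The genes most like RGS4 were NUBP2 (r = 0.70, rho = 0.70), PRKCB (r = 0.68, rho = 0.65) and RPUSD4 (r = 0.66, rho = 0.56), and those most like RGS20 were MPP5 (r = 0.54, rho = 0.52), TSSC1 (r = 0.53, rho = 0.56) and PDP2 (r = 0.53, rho = 0.59).

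**Figure D3:**
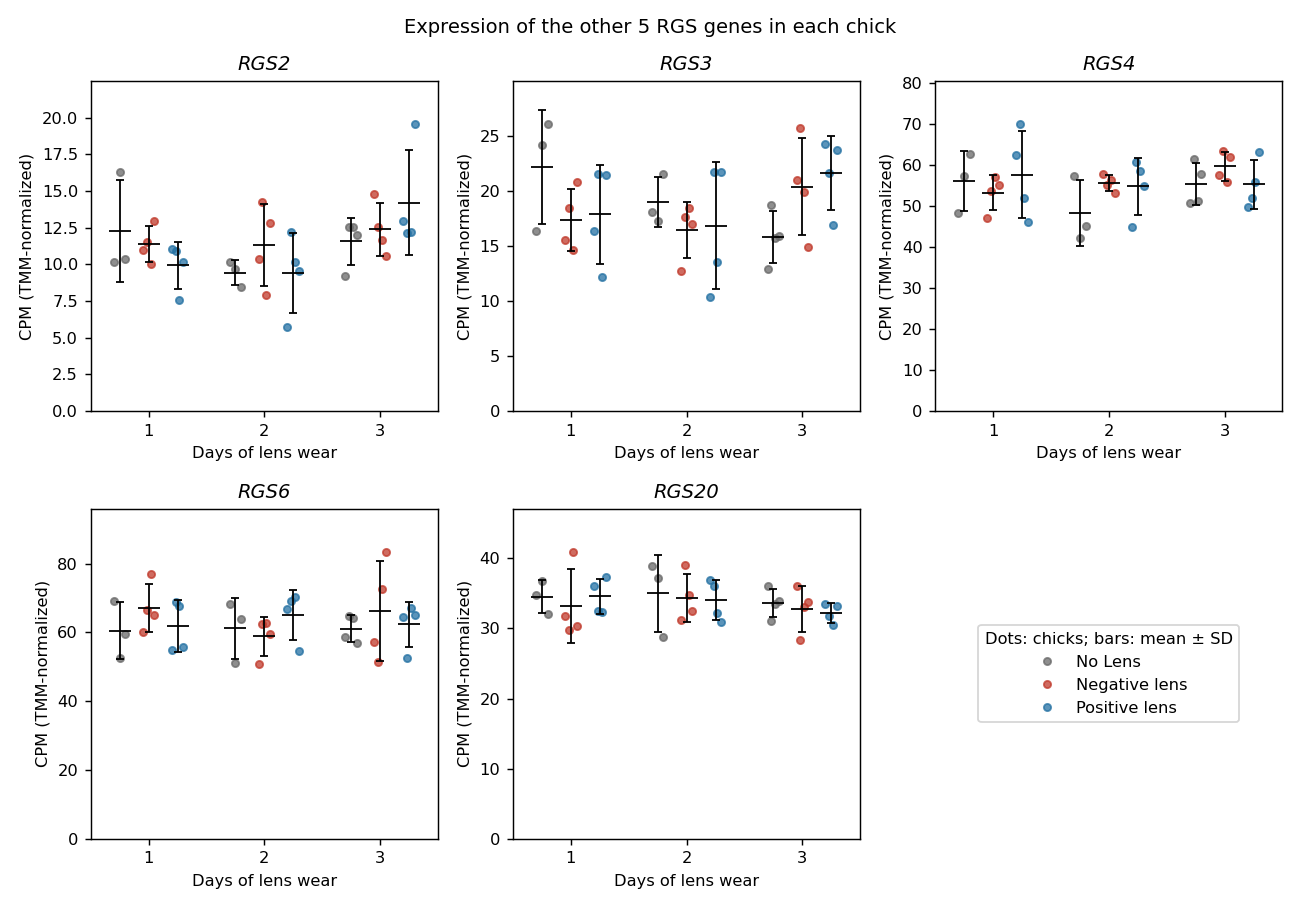
Levels of RGS2, RGS3, RGS4, RGS6 and RGS20 (CPM, TMM-normalized) in each chick against days of lens wear, with group means (horizontal bars) ± SD (error bars). The group means of RGS20 stay within 32.2 to 35.0 CPM, while those of RGS3 run from 15.8 to 22.2 CPM and those of RGS2 from 9.42 to 14.2 CPM.

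Counted over the 8 members, the negative lens gave an unadjusted p below 0.05 against no lens for 3 at 1 day, where 3.18% of all genes did. It did so for 3 at 2 days (4.98% of all genes), the same 3 genes, RGS16, RGS9 and RGS7, and for 1 at 3 days (10.3%), RGS16. These counts include the difference of RGS16 at 1 day that was described without a test. The positive lens did so for 2 at 1 day (3.87%), RGS7 and RGS16, for 0 at 2 days (2.51%) and for 1 at 3 days (17.6%), RGS3. Between the lenses RGS16 was the 1 member at each of the 3 days, beside 3.8%, 2.78% and 6.58% of all genes. At 1 day the median absolute log2 fold change of the members was 0.20 (negative lens) and 0.24 (positive lens), beside 0.09 and 0.10 over all genes tested. At 2 days it was 0.23 and 0.12, beside 0.12 and 0.10, and at 3 days 0.11 and 0.09, beside 0.12 and 0.13. The value of the negative lens at 1 day includes RGS16, which the study lists for that contrast. All members were chosen with results of these chicks known, so these counts and medians are no test of the set. At each day the values of the 2 lenses share their No Lens chicks.

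**Figure D4:**
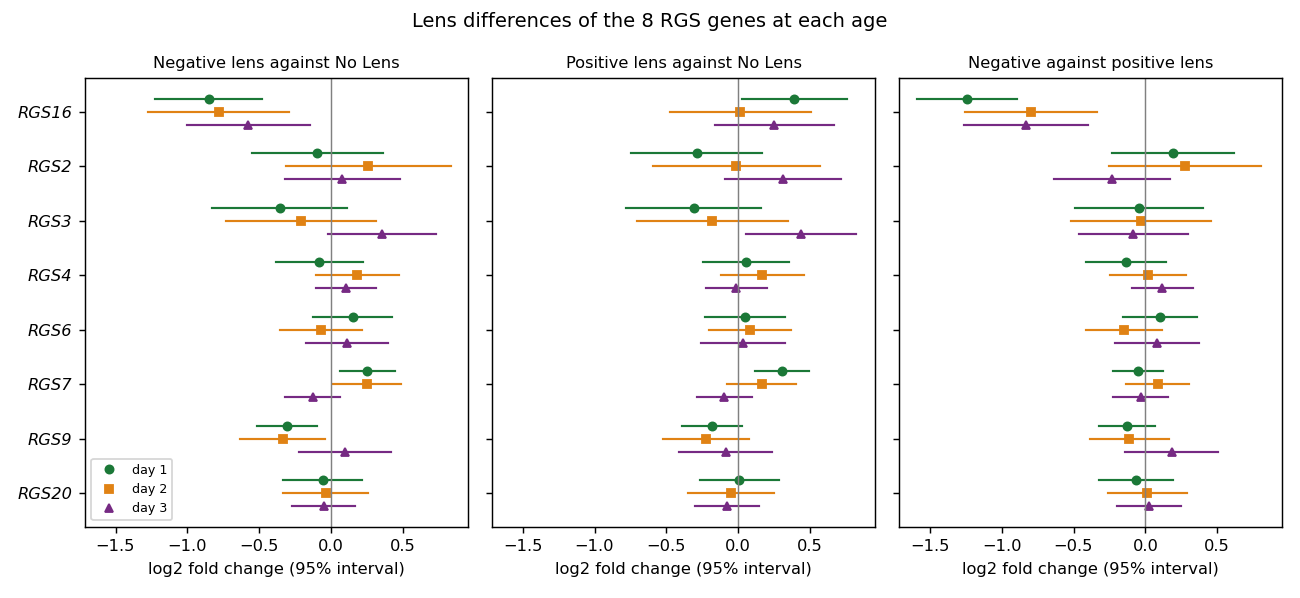
Log2 fold changes of the 8 RGS genes for the negative lens against no lens, the positive lens against no lens and the negative against the positive lens, at 1, 2 and 3 days. Points are estimates and lines are 95% intervals of edgeR's quasi-likelihood fit. The points of RGS16 lie below 0 in the left and right panels at each day, at -1.24, -0.80 and -0.83 between the lenses. Its value in the left panel at 1 day is the contrast for which the study lists the gene. It is shown as a description, and the other values of RGS16 are no independent test.

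Over days, No Lens chicks gave an unadjusted p below 0.05 for 0 members from 1 to 2 days (5% of all genes), 2 from 2 to 3 days (4.9%), RGS9 and RGS7, and 3 from 1 to 3 days (12.5%), RGS3, RGS7 and RGS9. The count from 2 to 3 days includes the difference of RGS9 that was described without a test. Negative lens chicks gave 0 members in each of the 3 comparisons, where 5.57% (1 to 2 days), 5.09% (2 to 3 days) and 3.82% (1 to 3 days) of all genes met the threshold. Positive lens chicks gave 0 from 1 to 2 days (1.42%), 2 from 2 to 3 days (4.09%), RGS2 and RGS9, and 1 from 1 to 3 days (5.96%), RGS2. Differences of a lens effect between days had an unadjusted p below 0.05 for 3 members with the negative lens at 1 against 3 days (4.24% of all genes), 2 at 2 against 3 days (3.44%) and 2 with the positive lens at 1 against 3 days (7.98%). In the other 6 such tests it was 0 members, beside 3.05% of all genes for the negative lens (1 against 2 days), 1.74% and 4.13% for the positive lens (1 against 2 and 2 against 3 days), and 2.25%, 4.62% and 3.86% between the lenses. No gene had an adjusted p below 0.05 in these 9 tests (0%).

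Of 14 other genes with an RGS domain that were listed for comparison, 11 were in the table and 8 to 10 could be tested. None passed an adjusted p of 0.05 in the 18 comparisons. At 1 day 9 were tested against no lens. At an unadjusted p below 0.05 (edgeR) 1 was lower with the negative lens, beside 3.18% of all genes. With the positive lens 1 was higher and 1, RGS5, was lower, beside 3.87% of all genes. RGS5, a marker of pericytes, was lower with the positive lens at 1 day, by -0.66 on the log2 scale (standard error 0.23, unadjusted p = 0.0142, adjusted p = 1.00, edgeR), and higher with it at 3 than at 1 day by 0.83 (standard error 0.22, unadjusted p = 0.00247, adjusted p = 0.671). In both the groups did not overlap, which held in the same direction for 2.68% of all genes in the first and 2.57% in the second. Of the smooth muscle and pericyte markers, 3 of 5 were lower with the positive lens at 1 day (summed level 389.6 to 698.9 CPM against 852.7 to 951.8 CPM). With that lens at 3 days the sum was 481.6 to 869.8 CPM, overlapping that of 1 day. Against no lens at 3 days the mean of RGS5 was higher with it (106 against 86.5 CPM) and the mean sum lower (710 against 811 CPM). With the negative lens at 1 day RGS5 was lower (76.3 against 92.1 CPM) and the sum higher (941 against 899 CPM). The part of these markers was not tested. RGS8, which lies next to RGS16 in the RefSeq gene order of assembly GRCg7b, had an unadjusted p below 0.05 in 0 of the 9 lens comparisons. It was lower without a lens at 3 than at 2 days by -0.17 (standard error 0.07, unadjusted p = 0.0280, adjusted p = 0.918) and at 3 than at 1 day by -0.19 (standard error 0.07, unadjusted p = 0.0143, adjusted p = 0.317). In the same gene order RGS2 lies next to RGS4, and RGS9 lies between AXIN2 and GNA13.

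Among 16 G protein alpha subunits of all classes that were listed, 12 were measured and 1 passed an adjusted p of 0.05. GNAI2, an inhibitory alpha subunit, was higher with the positive lens at 3 days, with a mean of 63.9 CPM against a No Lens mean of 39.1 CPM and a log2 ratio of 0.67 (adjusted p = 0.0447, standard error 0.14, edgeR), and all 4 lens chicks were above all 4 No Lens chicks. In that comparison 0.878% of all genes, 101 of them, were called, and all 4 lens chicks lay above all No Lens chicks in 9.14% of genes. No gene was called there, GNAI2 included, without No Lens replicate 1, 3 or 4 or without positive lens replicate 4 of that day, and 6 genes were called in the fit of all 34 chicks. GNAT1, the rod transducin alpha subunit on which RGS9 acts, was higher at 3 days with the negative lens by 0.54 (standard error 0.10, unadjusted p = 7.60e-05, adjusted p = 0.195) and with the positive lens by 0.42 (standard error 0.10, unadjusted p = 0.000825, adjusted p = 0.0603), with no overlap in either. With the negative lens at 3 days 1.96% of genes separated the groups upward. GNAT2, its cone counterpart, was higher by 0.29 (standard error 0.13, unadjusted p = 0.0440, adjusted p = 0.476) and 0.33 (standard error 0.13, unadjusted p = 0.0272, adjusted p = 0.207), with overlap. RGS9 itself had log2 fold changes of 0.10 and -0.09 in these 2 comparisons. GNAQ, the Gq alpha subunit, met an unadjusted p of 0.05 in none of the 18 comparisons. No gene was called among 10 beta and gamma subunits, 5 genes of the ON bipolar cascade or 8 receptor kinases and arrestins. Of the cell markers COL1A2 was called, higher with the positive lens at 3 days by 0.89 (standard error 0.19, adjusted p = 0.0452), a call lost like that of GNAI2 when any of the same 4 chicks was left out.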

How the data were processed

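Messenger RNA of 34 chick eyes was sequenced from a strand-specific library kit as single-end reads. Per the labels and the study's methods, adapters and low-quality bases were removed with cutadapt and Trimmomatic, the authors aligned to galGal4 with TopHat2 and Bowtie2, and HTSeq counted reads with a unique gene. They deposited these counts as whole numbers, 1 column a chick, without normalization. HTSeq's strand setting is not given in the sources used here, and reads that map to more than 1 place are left out, so near-identical genes can be counted low. One No Lens column of 3 days, replicate 1 of its group, carries a suffix of unknown meaning and was matched by its chick number. Without this chick 0 of all genes were called for the positive lens at 3 days, against 101, as also without No Lens replicate 3 or 4. Without it 56 genes were called for No Lens chicks from 2 to 3 days, against 1. It is also the No Lens chick of 9.19 CPM for RGS2 described below.

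Counts were analysed in R 4.3.3 with edgeR 4.0.16: filterByExpr (minimum count 10, minimum total count 15), TMM scaling, and glmQLFit and glmQLFTest with 1 mean a group and no covariates. Lens comparisons used all chicks of a day (11448, 11410 and 11501 genes tested), comparisons over days used the 3 days of 1 lens group (11460, 11368 and 11432 genes), and differences of a lens effect between days used all 34 chicks (11882 genes). Benjamini-Hochberg adjustment ran over all genes tested, with calls at an adjusted p below 0.05. Standard errors are the absolute log2 fold change divided by the square root of the F statistic. Correlations used log2 CPM with a prior count of 2. The 48 pairs of chicks within groups all had a chi-square per gene above that of sampling noise (2.78 to 21.1), and each chick counted once. The scripts were tested on simulated data.

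The members, gene lists and tests were chosen with earlier results of these data known. Full statistics are given for each member and comparison with an unadjusted p below 0.05 or with groups that did not overlap, apart from the differences of RGS16 and RGS9 that the study lists. RGS14, RGS10, RGS12 and RGS19 of the comparison list are covered by its counts. One gene of the photoreceptor marker list is not reported here and was left out of its counts and sums. RGS5 and RGS8 were named after their values were seen, and ARR3 and GPR158 were also named outside the rule set for naming genes of the lists. Gene order came from RefSeq (GRCg7b), which matched 9 of 9 members. The alternatives tried were edgeR's likelihood ratio test, RLE scaling, keeping low counts, a fit of only the 2 groups compared, a fit of all 34 chicks, DESeq2 1.42.0 both with its beta prior (shrinkage of fold changes) and without it, and each chick left out in turn, which for differences between days was added after the data were seen.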

Additional observations from a re-analysis of the deposited data

Results flagged for a closer look

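RGS2 had a stray chick in 2 groups. Among No Lens chicks of 3 days the lowest was at 9.19 CPM, with the others at 12.0 to 12.5 CPM, and among positive lens chicks of 3 days the highest was at 19.6 CPM, with the others at 12.1 to 13.0 CPM. In each the gap to the nearest chick, as a share of the group's range, was over Dixon's critical value for 4 chicks. In all 56 groups of 4 chicks were tested over the 8 genes, and chance gives about 1 in 20.

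Effects on opposite sides were found for 3 genes among 144 pairs of effects, where all chicks of a group lay on one side of the mean of the group they were compared with. For RGS2 the ratio of means, positive lens over no lens, was 0.809 at 1 day and 1.23 at 3 days, and the log2 difference between the days was -0.61 (95% interval -1.24 to 0.01, unadjusted p = 0.0529, adjusted p = 0.626, edgeR). The No Lens mean at 1 day was raised by 1 chick of 16.3 CPM. The others had 10.2 and 10.3 CPM, below the positive lens chicks of 10.9 and 11.0 CPM. For RGS3 the same ratio was 0.805 at 1 day and 1.37 at 3 days, with a log2 difference of -0.77 (95% interval -1.41 to -0.13, unadjusted p = 0.0201, adjusted p = 0.583). From 2 to 3 days the level of RGS3 went by a ratio of 0.833 without a lens and 1.28 with the positive lens, with a log2 difference of the lens effect, 2 minus 3 days, of -0.63 (95% interval -1.28 to 0.02, unadjusted p = 0.0582, adjusted p = 0.992). For RGS4 the ratio of negative over positive lens was 0.924 at 1 day and 1.08 at 3 days, with a log2 difference of -0.23 (95% interval -0.57 to 0.11, unadjusted p = 0.172, adjusted p = 1.00). None of these passed the adjusted threshold.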

How the results depend on the processing

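Alternatives were run for the 22 log2 fold changes and 7 differences between days that met the rule for full statistics. None of these 29 values changed sign under its alternatives (7 for a fold change, 2 for a difference) or with a chick left out, and the other comparisons of members were rerun only for the counts of calls. Counts of called members that moved were the following. Some counts rest on contrasts for which the study lists the gene, so they are no evidence for it. These are the negative lens against no lens at 1 day, where the count went from 0 to 1 (RGS16) with the likelihood ratio test and with DESeq2 with and without the beta prior, and No Lens chicks from 2 to 3 days, where it went from 0 to 1 (RGS9) in the same 3 settings, and ranged from 0 to 1 with a chick left out, being 1 without No Lens replicate 1 of 3 days. Between the lenses at 1 day it went from 1 to 0 (RGS16, log2 fold change -1.24, adjusted p = 0.126) with only the 2 groups compared, and ranged from 0 to 1 with a chick left out. Between the lenses at 3 days it went from 0 to 1 (RGS16) with the likelihood ratio test (adjusted p = 0.0298) and with DESeq2 with (0.0445) and without (0.0348) the beta prior. Without a lens from 1 to 3 days it went from 0 to 1 (RGS7) with both forms of DESeq2. These settings also called more of all genes. Between the lenses at 3 days they called 64, 38 and 60 genes, against 4 with the quasi-likelihood test. Without a lens from 1 to 3 days both forms of DESeq2 called 79 and 76, against 1. For the negative lens against no lens at 1 day the 3 settings called 11, 18 and 17, against 0. Without a lens from 2 to 3 days they called 47, 53 and 51, against 1. The cause of these shifts was not tested. With RLE scaling, with no filter and with all 34 chicks in 1 fit no count of called members moved. With the beta prior, which shrinks fold changes by construction, 8 of the fold changes moved by over 1.5 times. RGS16 was at -0.52 and -0.41 against no lens at 1 and 2 days and at -0.78, -0.44 and -0.54 against the positive lens at 1, 2 and 3 days. RGS2 with the positive lens was at 0.32 from 2 to 3 days and 0.28 from 1 to 3 days, and RGS3 without a lens at -0.30 from 1 to 3 days.

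No paired analysis was made, since each library came from the right eye of a different chick. The labels give no replicate numbers, and those used here only follow the order of the samples. With 3 or 4 chicks a group and unadjusted p-values over 144 comparisons of members, single results past 0.05 are weakly held. The tests of differences between days come on top of that number. The lowest total of 1592763 reads limits RGS2, with 18 reads in its lowest chick.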
